A study of Caenorhabditis elegans with 2 samples.

Results

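The genes described here are 9 C. elegans genes of the oocyte-to-embryo transition and its eggshell, namely egg-1 to egg-6, mbk-2, chs-1 and cbd-1, out of 19973 protein-coding genes on the nuclear chromosomes. They were examined for binding of CES-1, a zinc finger factor of the Snail family, by chromatin immunoprecipitation followed by sequencing (ChIP-seq). The members were chosen by their names and by the pooled signal of a peak upstream of egg-5, so that their counts and signals are given as a description with no test. Summits counted for a gene when they lay in its body or within 5 kb of it.

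Embryos of strain OP174 were used, with the genotype unc-119(ed3) and the integrated transgene wgIs174, in which ces-1 bears TY1, EGFP and FLAG tags beside unc-119. Per the labels, both libraries came from whole organisms of pooled sexes at mixed embryonic stages, with the age unknown. They were 2 biological replicates of this single genotype, and no untagged or mutant group was analysed. The promoter that drives the tagged gene is not given in the sources used here. A peak in whole mixed embryos does not tell which cells or stages it came from.

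At fertilization the worm oocyte completes meiosis, secretes a layered eggshell and turns over maternal proteins within minutes. MBK-2, a kinase of the DYRK family, marks several of those proteins, and the phosphatase-like proteins EGG-3, EGG-4 and EGG-5 hold it at the oocyte cortex until meiosis proceeds. EGG-1 and EGG-2 are oocyte surface proteins with LDL receptor repeats that fertilization needs, CHS-1 is the chitin synthase of the eggshell, and CBD-1 is a chitin-binding protein of its outer layer. The name of egg-6 belongs to another kind of protein: it encodes a protein with leucine-rich repeats known from the apical matrix of epithelia, so the label of the set does not describe it. Most of these products are made in the oocyte, whereas the libraries were made from embryos.

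Most of the summits near these genes lay in the windows of mbk-2 and egg-5. The pooled peak list that passed the authors' step of irreproducible discovery rate (IDR), which compares peak ranks between replicates, is called thresholded here. It had 14 summits in the windows of 5 of the 9 genes, 9 of them at mbk-2, 2 at egg-5 and 1 each at egg-3, chs-1 and egg-6. A thresholded summit in the window was found for 42.3% of all protein-coding genes, so 5 of 9 was not far from the background. Of the 14 summits, 9 were nearest to the 5′ end of the gene itself among protein-coding genes, 8 of these at mbk-2 and 1 at egg-5. Nearest does not mean close, since at mbk-2 these distances ran from 81 to 7476 bp. The other 5 were nearer to the 5′ end of a neighbour.

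The same counts were small under the closer rules. The promoter window reached from 1000 bp before any annotated 5′ end of a gene to 200 bp past it. A summit in it was present at 2 of 9 genes, egg-5 and mbk-2, against 16.2% of all protein-coding genes. These 2 genes also had the nearest 5′ end to a summit in their window, which held for 19.6% of all. A summit in the gene body was present at mbk-2 alone, against 7.19% of all. Each of these counts was within 1 gene of what the background share gives for 9 genes. All 14 summits had a match within 100 bp in both replicates, as did 94.5% of all thresholded nuclear peaks. The matches were sought in the relaxed lists, which hold peaks and background for each replicate. Because the thresholded peaks had already passed the IDR comparison of replicates, these matches are not separate support for the 14 summits.

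**Figure D1:**
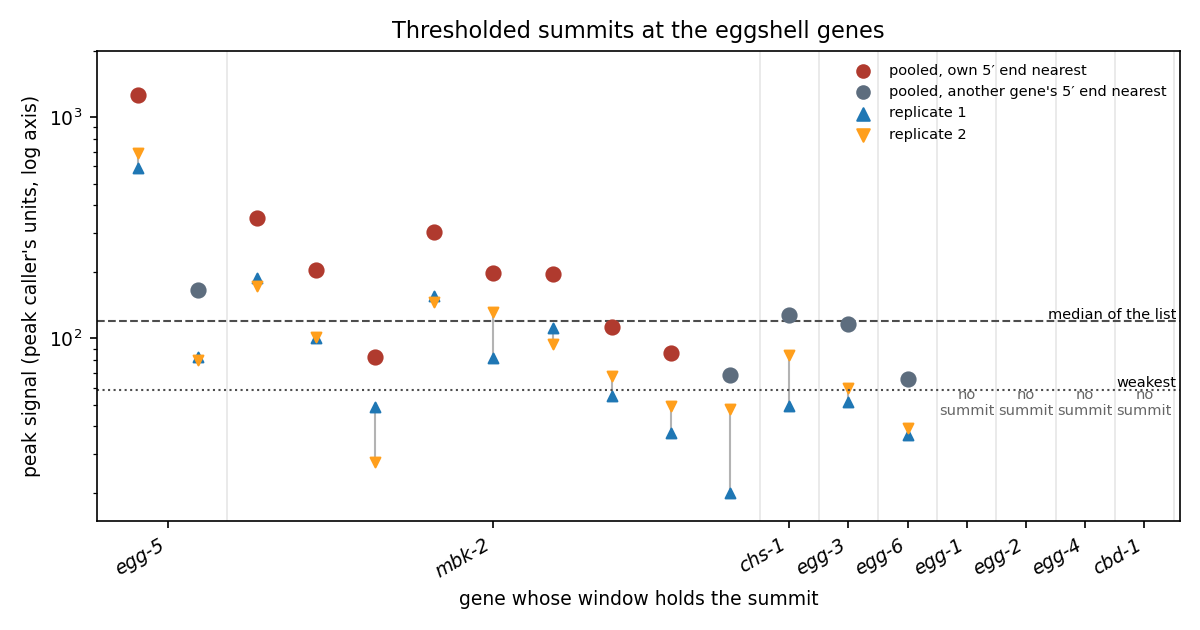
Signal of each thresholded summit in the windows of the 9 genes, on a log axis, with the pooled value as a circle and replicates 1 and 2 as triangles; red circles mark summits nearest to the gene's own 5′ end among protein-coding genes. The dashed and dotted lines are the median (119.3) and the weakest (58.7) peak of the thresholded list, and the first egg-5 summit stands at 1263 while the other 13 run from 65.6 to 351.

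The strongest peak of the set lay upstream of egg-5, which encodes one of the phosphatase-like inhibitors of MBK-2. It spans 4168984 to 4171589 of chromosome I and is read from the minus strand (ce11, counted from 1). The peak ran from 4171947 to 4172629 with its summit at 4172244, 655 bp upstream of the annotated 5′ end, in sequence between protein-coding genes. Its signal was 588 in replicate 1 and 687 in replicate 2, and 1263 in the pooled list. It held rank 11 in each replicate and rank 10 in the pooled list.

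The replicates differed little at this peak. The log2 ratio of replicate 2 to replicate 1 was 0.22, against a median of 0.15 and an SD of 0.57 over the 5928 thresholded nuclear peaks found in both. In the strongest 20% of peaks that SD was 0.31. Among the 2494 summits that lie in a promoter window, the egg-5 summit was the third by pooled signal. The next above, with 1863, was shared by C37A2.8 and E02D9.1, at 916 and 957 in the replicates. The next below were H41C03.3, with 1170 pooled and 600 and 565 in the replicates, and fic-1, with 1159 pooled and 486 and 681 in the replicates. The log2 differences of these pooled signals from that of egg-5 were 0.56, −0.11 and −0.12. The latter pair of differences was smaller than either SD given above, while 0.56 exceeded only the SD of the strongest 20%. These SDs describe the spread of replicate ratios over peaks and are not errors of a difference between pooled signals.

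When all annotated genes were considered, the egg-5 summit was nearest to a small RNA gene and not to egg-5. The summit lay inside sls-2.4, a gene of 110 bp annotated as snRNA (I, 4172206 to 4172315, plus strand), 38 bp from its 5′ end. The sls-2 genes encode SL2 spliced leader RNAs, short RNAs whose leader is joined to messages from downstream genes of worm operons. A non-coding gene on the minus strand, R12E2.18 (4172204 to 4172306), overlaps sls-2.4, and the summit was 62 bp from its 5′ end. The protein-coding neighbour on the far side, R12E2.11 (4172438 to 4173624), points the same way as egg-5 and has its 5′ end 1380 bp from the summit. The data do not tell which of these genes, if any, the peak acts on.

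Other sls-2 genes were then examined; they were chosen after the place of the egg-5 summit had been seen. Of the 18 sls-2 genes, 6, or 33.3%, had a thresholded summit within 200 bp of the 5′ end. The 6 include sls-2.4, whose peak prompted the look, and without it the count was 5 of 17, or 29.4%. It was 0 of 12 for the sls-1 genes, which encode the SL1 spliced leader RNA. Whether reads can be placed uniquely at those 12 genes was not examined. The share was 9 of 99, or 9.09%, for snRNA genes not named sls and 1306 of 19973, or 6.54%, for protein-coding genes at their outermost 5′ end. The pooled signal was 1263 at sls-2.4, 1170 at sls-2.1, 763 at sls-2.2, 344 at sls-2.8, 81.15 at sls-2.7 and 62.5 at sls-2.18. The first 2 ranked 10 and 14 in the whole list and the last ranked 5994, so the sls-2 genes with a peak covered nearly its whole range. The summit at sls-2.1, 19 bp from its 5′ end, is the one that also falls in the promoter window of H41C03.3. The sls-2.2 summit of signal 763, the nearest to that gene's 5′ end, had no match within 100 bp in replicate 2. A second thresholded summit, at 5543770 of chromosome II, also lay within 200 bp of the sls-2.2 5′ end. Its signal was 203 and 368 in the replicates and 438 pooled.

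The sls-2 genes resemble one another, which bears on where reads can be placed. The 201 bp centred on the egg-5 summit matched 16 other places in the genome, the longest over 181 bp at 84.0% identity. Of the 36-base words in the whole egg-5 peak, 97.2% occurred once in the nuclear genome. The read length is not given in the sources used here, and the part of read placement in these signals was not tested.

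The second summit in the egg-5 window belonged to a divergent promoter farther away. It lay at 4175074, 3485 bp upstream of egg-5, 245 bp from the 5′ end of the proteasome subunit gene rpn-8 and 300 bp from that of mrps-6, a gene for a mitochondrial ribosomal protein. Its signal was 82.3 and 79.7 in the replicates and 166 pooled. The first summit outside the window, at 4178564 and 6975 bp from the gene, had a pooled signal of 224 and was nearest to R12E2.13.

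The near-identical partner of egg-5, egg-4, had no peak. The gene lies on the plus strand of chromosome I, from 3932210 to 3934813, and its coding sequence of 2259 bp was 99.1% identical to that of egg-5. The relaxed lists, which hold 30000 peaks and background each, had 0 entries in its window in the pooled data and in each replicate. The nearest thresholded summit lay 21687 bp away with a signal of 85.9. Upstream of the genes the likeness was lower: over 1000 bp the 2 sequences were 57.8% identical in a global alignment, where the 3 other upstream pairs among egg-1 to egg-5 that were aligned in the same way gave 43.0% to 45.2%. In both gene bodies only 30.7% of 36-base words occurred once in the genome, against 85.6% over the egg-4 window, and whether the authors kept reads that fit several places is not stated.

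**Figure D2:**
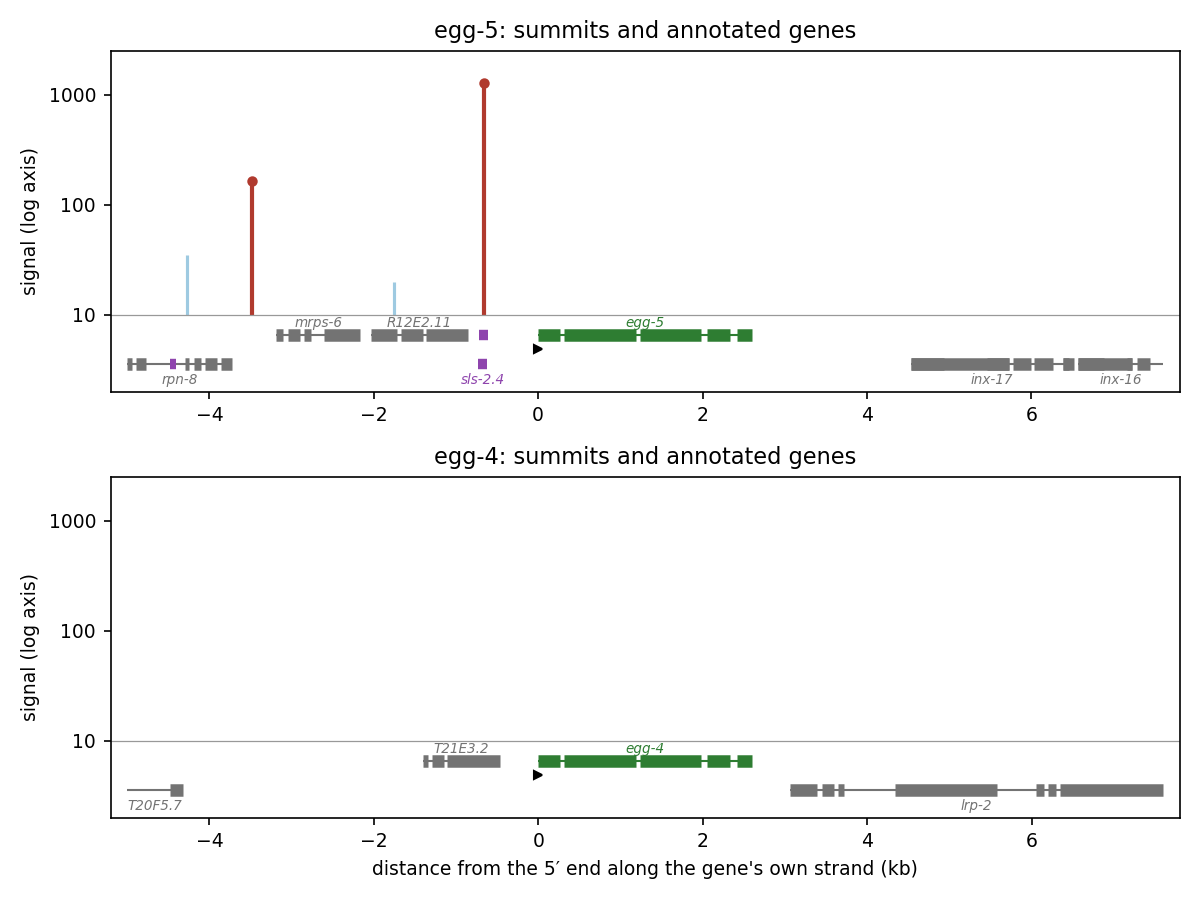
Windows of egg-5 (top) and egg-4 (bottom), as distance in kb from the gene's 5′ end along its own strand; red stems are thresholded summits and pale blue stems weaker entries of the relaxed pooled list, with signal on a log axis. Gene models are drawn below, genes of the same direction in the upper row, with small RNA genes in purple and the gene itself in green; the tallest stem (1263) stands over sls-2.4, and the egg-4 window holds 0 entries.

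The third phosphatase-like gene, egg-3 (II, 10882408 to 10884441, minus strand), had a single summit in its window, on the far side from its 5′ end. It lay at 10879451, 2957 bp beyond the 3′ end and 4990 bp from the 5′ end of egg-3. The 5′ end of the neighbour lurp-1 was nearer, at 1474 bp. The signal was 51.8 and 59.5 in the replicates and 116 in the pooled list, close to the list's median of 119.3. The next summit away from the gene, at a gap of 9637 bp, was nearest to copz-1.

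Binding at mbk-2 took another form, a series of peaks inside the gene. The gene spans 26804 bp of the plus strand of chromosome IV (13009158 to 13035961), with 14 annotated isoforms that start at 6 different 5′ ends. It held 8 summits in its body, or 2.98 per 10 kb, against 0.626 per 10 kb over the nuclear genome. Of all protein-coding genes, 0.0851% had 8 or more body summits. Long genes can hold more, and of the 247 genes within 1.5-fold of its length, from 17920 to 39492 bp, 12, or 4.86%, had 8 or more, with mbk-2 among them; their median was 1 and the highest number in any gene was 13.

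**Figure D3:**
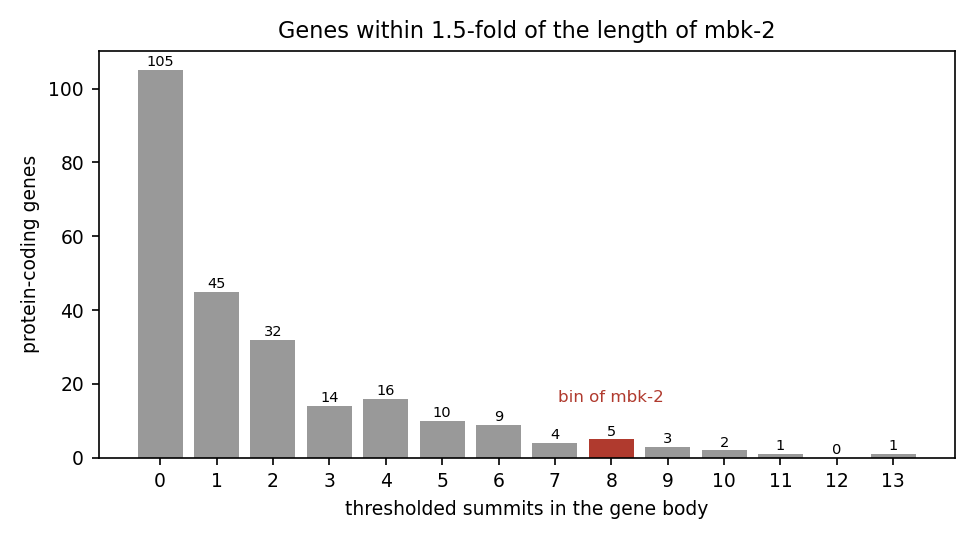
Number of protein-coding genes (y axis) by the number of thresholded summits in the gene body (x axis), for the 247 genes within 1.5-fold of the length of mbk-2. The red bar is the bin of mbk-2 at 8 summits, which holds 5 genes, and 105 of the 247 genes had 0 summits.

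The 8 body summits of mbk-2 fell into groups along the isoform that starts first, F49E11.1b.1, which has 12 exons. In its intron 4, of 8718 bp, lay 3 summits at 13016060, 13017058 and 13017780, with pooled signals of 351, 203 and 82.2. In its intron 6, of 6975 bp, lay 4 summits at 13026287, 13028207, 13028658 and 13030381, with pooled signals of 302, 198, 195 and 113. The last, at 13031880 with 85.9, lay in intron 7. The strongest of intron 4 had signals of 188 and 172 in the replicates, and the strongest of intron 6 had 155 and 146. At both, replicates 1 and 2 ranked the peak between 390 and 874.

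Several of these summits lay close to the 5′ ends of shorter mbk-2 isoforms. The summit at 13026287 was 81 bp downstream of the 5′ end of F49E11.1e.1, in an exon that only 1 of the 14 isoforms has. The summit at 13030381 was 953 bp upstream of the 5′ end at 13031334. That at 13031880 was 236 bp downstream of the 5′ end at 13031644, past the 200 bp limit of the promoter window. By contrast, the first 5′ end of the gene, at 13009158, had no thresholded summit within 5000 bp. The nearest to it lay 5508 bp upstream, just outside the window, with a pooled signal of 67.5 and with mbk-2 as the nearest gene. Below the threshold, the relaxed pooled list had an entry 100 bp upstream of the 5′ end at 13031334 (signal 56.1, rank 6530, −log10 q 2.25), which may be background.

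Sequences around some of the mbk-2 summits are shown, namely the 3 summits of intron 4 and the strongest purely intronic summit of intron 6. Each is 201 bp centred on the summit, on the plus strand of ce11 from the WBcel235 reference, and capitals mark the general E-box CANNTG, which many basic helix-loop-helix and zinc finger factors bind.
mbk-2 summit of signal 351, chrIV:13015960-13016160: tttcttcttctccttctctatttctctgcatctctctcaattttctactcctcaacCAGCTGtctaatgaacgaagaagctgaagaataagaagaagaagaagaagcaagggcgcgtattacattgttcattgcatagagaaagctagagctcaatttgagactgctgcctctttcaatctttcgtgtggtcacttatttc
mbk-2 summit of signal 203, chrIV:13016958-13017158: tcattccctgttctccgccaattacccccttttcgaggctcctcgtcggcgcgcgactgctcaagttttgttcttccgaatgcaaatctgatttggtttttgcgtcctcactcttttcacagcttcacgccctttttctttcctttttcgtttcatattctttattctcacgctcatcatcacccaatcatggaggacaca
mbk-2 summit of signal 82.2, chrIV:13017680-13017880: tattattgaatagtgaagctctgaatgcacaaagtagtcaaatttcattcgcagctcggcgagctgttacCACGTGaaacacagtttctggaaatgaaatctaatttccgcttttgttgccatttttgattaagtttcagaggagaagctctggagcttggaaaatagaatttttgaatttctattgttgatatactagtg
mbk-2 summit of signal 198, chrIV:13028107-13028307: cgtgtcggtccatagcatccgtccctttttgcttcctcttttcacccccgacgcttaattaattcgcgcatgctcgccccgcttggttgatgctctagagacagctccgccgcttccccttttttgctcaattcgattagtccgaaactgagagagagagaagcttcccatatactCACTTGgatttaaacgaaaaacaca

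The first of these sequences has the palindrome CAGCTG and the third CACGTG, the second has no E-box, and the fourth has CACTTG more than 50 bp from its summit. None holds CAGGTG or its reverse complement CACCTG, the E-box that Snail-family proteins bind. Over all 14 summits, 0 had CAGGTG or CACCTG within 50 bp, where 1.8% of all thresholded nuclear summits had it, a share near which 0 of 14 falls. The general E-box CANNTG, which reads the same on both strands and takes in CAGGTG, lay within 50 bp of 4 of the 14 summits, against 34.9% of all. These 4 were the mbk-2 summits of signal 351 and 82.2, the summit beyond the end of mbk-2 and the one near lurp-1. No match says only that these letters are not in the window. The GC content of the 101 bp around the summits ran from 25.7% to 50.5%, with the median over all thresholded nuclear summits at 41.6%.

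Among the summits of the mbk-2 window, the replicates differed most at 13017780 and 13037011. The log2 ratio of replicate 2 to replicate 1 ran from −0.24 to 0.69 at 7 of the 8 body summits. At 13017780 it was −0.83, with signals of 49.1 and 27.7, −1.71 SD from the median of all peaks. The ninth summit of the window, at 13037011, lay 1050 bp past the 3′ end of mbk-2, in a coding exon of the convergent gene F49E11.2. There the signals were 19.9 and 47.9 in the replicates and 68.4 pooled, a log2 ratio of 1.27, and at 1.96 SD it was the least even of the 14 summits.

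**Figure D4:**
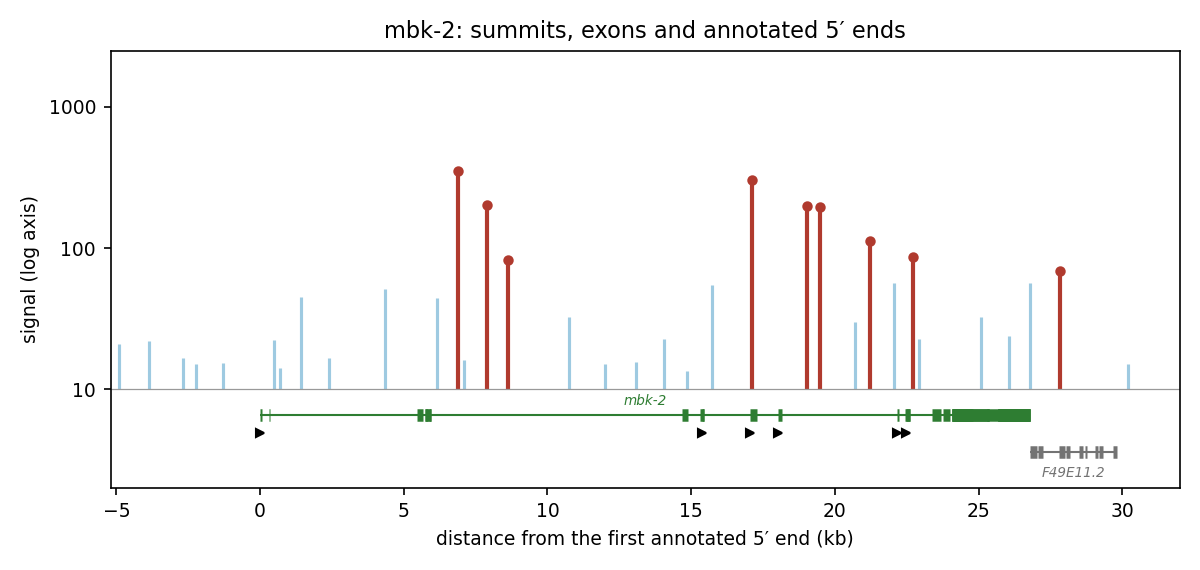
Window of mbk-2 as distance in kb from its first annotated 5′ end; red stems are the 9 thresholded summits and pale blue stems weaker entries of the relaxed pooled list, with signal on a log axis. Green boxes are exons of all isoforms, black triangles the 6 annotated 5′ ends and grey the neighbour F49E11.2; the summits form a group in intron 4 and another from the third 5′ end onward, and none lies at the first.

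The genes for shell components, chs-1 and cbd-1, had 1 and 0 thresholded summits in their windows. At chs-1, the chitin synthase gene (I, 7554855 to 7559916, plus strand), the only summit of the window lay 4484 bp upstream, at 7550371. Its signal was 49.5 in replicate 1 and 83.8 in replicate 2, and 128 pooled. The gene T25G3.1, which lies between the summit and chs-1 on the same strand, had the nearer 5′ end, at 3473 bp. This summit was the closest of the 14 to the limit of the window, and the next, 6476 bp from chs-1 with a signal of 137, fell outside it and was again nearest to T25G3.1.

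At cbd-1, for the chitin-binding protein (IV, 11372991 to 11377627, plus strand), no entry of any list fell in the window. The nearest thresholded summit lay 8702 bp away with a pooled signal of 94.3 and was nearest to T01G1.4. Of the 36-base words in this window 94.0% occurred once in the genome.

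The pair of oocyte surface genes was also without peaks. Neither egg-1 (III, 5728180 to 5730159, plus strand) nor egg-2 (III, 7058527 to 7060583, minus strand) had an entry in its window in the thresholded list, the relaxed pooled list or the relaxed list of either replicate. Their coding sequences were 69.3% identical, and nearly all or all 36-base words in both windows occurred once in the genome. The nearest thresholded summit to egg-1 lay 6197 bp upstream, with a signal of 97.8, and was nearest to wrm-1, which encodes a beta-catenin. For egg-2 the gap was 16971 bp and the signal 80.8.

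In all, 4 of the 9 genes, egg-1, egg-2, egg-4 and cbd-1, had no entry in the relaxed pooled list in their windows, against 35.7% of all protein-coding genes. An empty window was therefore common, and 4 of 9 was near that share. At the other end, the mbk-2 window held 34 relaxed entries, that of egg-5 4, egg-6 3, egg-3 2 and chs-1 1.

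The gene egg-6 (I, 8676666 to 8681325, minus strand) had the weakest summit of the set. It lay 3685 bp upstream at 8685010, in an intron of the neighbour hot-5, whose 5′ end was nearer at 2207 bp. The signal was 36.4 and 39.3 in the replicates and 65.6 pooled, not far above the weakest thresholded peak at 58.7.

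**Figure D5:**
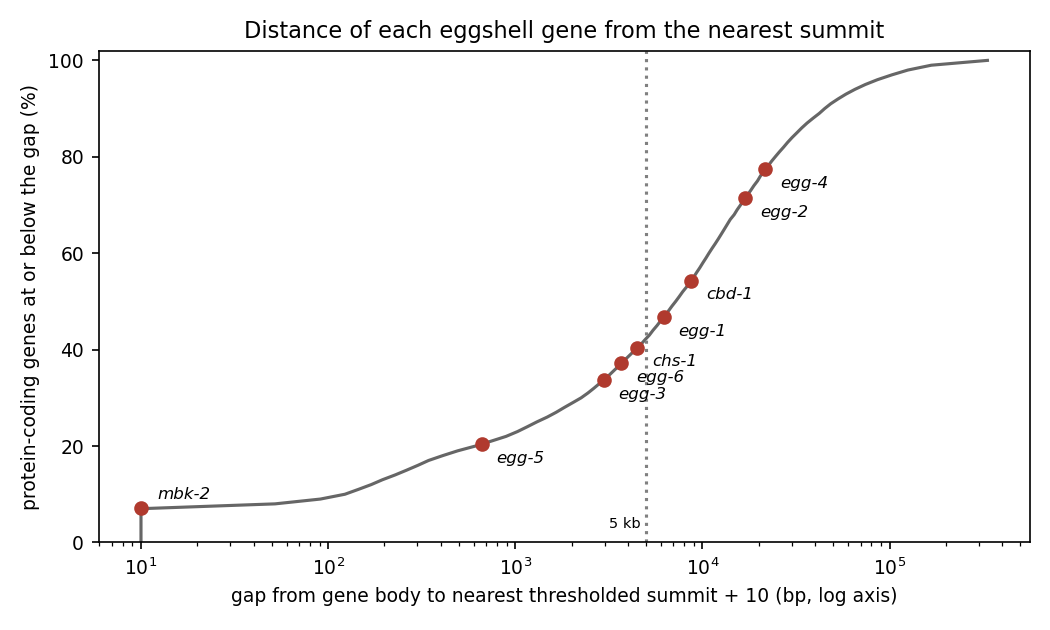
Cumulative share of protein-coding genes (y axis, percent) by the gap between gene body and nearest thresholded summit (x axis, bp plus 10, log axis), with the 9 genes as red points. The points lie between 7.19% and 77.4% of genes, from mbk-2 at 0 bp and egg-5 at 655 bp to egg-2 at 16971 bp and egg-4 at 21687 bp, around a median gap of 7188 bp for all genes.

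Other genes of the same processes were counted by promoter summit in the same way, beside the 16.2% of all protein-coding genes. Of 20 genes for eggshell layers and the permeability barrier, 2 had one, the separase gene sep-1 (signal 170) and the membrane traffic gene rab-11.1 (88.6). Both summits were nearer to another gene, nefr-1 at 140 bp and the ribosomal protein gene rpl-7 at 296 bp. The chondroitin proteoglycan genes cpg-1 and cpg-2 were in this list and had none. Of 9 genes for sperm and egg interaction, 1 had one, spe-36, with a signal of 66.8 and F40F11.3 as the nearer gene. None of these 3 promoter summits was nearest to the gene of the list.

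The longest list held regulators of the transition and of protein turnover. Of its 26 genes, 8, or 30.8%, had a promoter summit, against 16.2% of all protein-coding genes. Some of these promoter summits were nearer to another gene, and 6 genes, or 23.1%, had the nearest 5′ end to a summit in their window. The latter share was near the 19.6% of all protein-coding genes. The strongest were at mex-1 (238, in the replicates 110 and 128) and spn-4 (217, in the replicates 120 and 100), both for RNA-binding proteins of the early embryo. These summits were nearer to W03C9.5 and spe-39. At mel-26, the substrate adaptor that brings the katanin subunit MEI-1 to the ubiquitin ligase CUL-3, the summit lay 483 bp upstream of the 5′ end with signals of 94.9 and 65.7 and 152 pooled. At cul-3 itself it lay 423 bp upstream with signals of 47.7 and 64.1 and 105 pooled. In this pair no other protein-coding 5′ end was nearer. The mei-1 summit, at 58.8, was close to the weakest peak of the list and was nearer to npp-2. That at cdk-1, with 103 pooled, was nearer to iff-1.

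Relatives of the 9 genes by family included 2 more kinases with a peak. Of 5 relatives found in the annotation, 2 had a promoter summit, against 16.2% of all protein-coding genes. Both summits were nearest to the gene itself. At mbk-1, the other MBK kinase of the DYRK family, it lay 316 bp upstream with signals of 75.3 and 76.5 and 154 pooled. At hpk-1, for a homeodomain-interacting kinase, it lay 108 bp upstream with 57.5 in replicate 2, 87.8 pooled and no match in replicate 1. The chitin synthase gene chs-2 and the leucine-rich repeat genes let-4 and sym-1 had none. These lists are short, and no test was made of their shares.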

How the data were processed

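Peak lists from 2 biological replicates of eGFP-tagged CES-1 were used as deposited. The authors, per notes that accompany the libraries, made relaxed lists of peaks and background for each replicate and for the pooled data, against a control, and kept pooled peaks that passed IDR. The sources used here do not give the aligner, caller, read depth or read length. Signal values were taken as the authors deposited them, with no stated scale, and served to rank peaks within 1 list. Log2 ratios of these values were also taken, with no rescaling, between the replicate lists and between pooled signals next to that of egg-5. The deposited −log10 q was used for entries below the threshold. The lists held 6290 thresholded and 30000 relaxed peaks, and 6273 thresholded peaks lay on the 6 nuclear chromosomes.

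Summits (ce11) were placed on the Ensembl release 115 annotation of WBcel235, whose chromosome lengths all exceed the last peak. Windows and promoters are defined in the report; replicate summits were matched within 100 bp. Words of 36 bases were counted over both strands, matches were sought with BLASTN 2.17.0 (E-value up to 1e-05), and pairs were aligned with Biopython. On simulated data, summits planted inside the promoter windows of 200 genes were all recovered. This checks only the placing of summits on genes, not peak detection or binding. The members and lists were chosen with earlier results of these data known. Named genes are the 9 members, the genes beside each summit and the genes next to egg-5 in promoter signal. From each list, up to 4 genes with the strongest promoter summit are named. The genes nearest to summits outside the windows, sls-2, chs-2, let-4, sym-1, cpg-1, cpg-2, mei-1 and cdk-1 were named in addition. Of the listed names, 5 (syn-4, spe-13, trp-3, spe-50 and dyrk-3) had no match. Alternatives covered other windows, stricter peaks, each replicate alone (its 6290 strongest relaxed peaks), match and motif distances and the ce10 list.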

Additional observations from a re-analysis of the deposited data

How the results depend on the processing

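Every count that an alternative moved by over 1.5 times is given here, as is every rank that moved by at least the SD between the ranks in the 2 replicates. The other 44 values under alternatives did neither. Each replicate alone left 5 genes with a window summit and the same 2 genes, egg-5 and mbk-2, with a promoter summit. With only the 1000 strongest peaks, 2 genes and 3 window summits remained, and 0 genes had a promoter summit in each of the 4 lists of other genes. A window of 2 kb left 2 genes. A promoter window from 500 bp upstream to 100 bp downstream left 1 of the 9 genes, mbk-2, since the egg-5 summit lies 655 bp away; it left 1 shell and barrier gene and 0 sperm and egg genes. That last list ran from 0 to 1 with single replicates, without replicate 1 and without replicate 2. Among 5′ ends of all annotated genes, 1 of the 9 genes, mbk-2, was nearest to a summit in its window. Ranks of the strongest peak with 1 replicate left out ran from 11 to 11 at egg-5, from 3556 to 3608 at egg-3 and from 5265 to 5433 at egg-6. The radius for sls-2 genes, added after the data were seen, gave 6 genes at 100 bp and 7 at 500 bp, and single replicates gave 4 and 6. No paired analysis was possible because all samples form 1 group. The deposited lists hold peaks and no reads, so depth could not be read and an empty window does not show that binding is absent.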
